A study of Mus musculus with 12 samples.

Results

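H3K27me3 was examined over 4 homeobox genes, Gsx1, Pdx1 and Cdx2 of the ParaHox cluster on mouse chromosome 5 and Cdx1 on chromosome 18. Members were the enriched islands that overlapped 2 regions of the mm9 assembly, chromosome 5 from 147980000 to 148130000 (150 kb) and chromosome 18 from 61165000 to 61210000 (45 kb). They numbered 44 of 81097 islands over 8 lists, 38 over the ParaHox region and 6 over the Cdx1 region. Epithelium of the small intestine of mice of mixed C57BL/6 CD1 strain had been assayed by ChIP-seq (chromatin immunoprecipitation followed by sequencing) in 4 sorted populations with 2 ChIP libraries each: EpCAM+ epithelium of embryos at E12.5 and at E14.5, adult Lgr5+ intestinal stem cells (ISC) and adult enterocytes (AE). The 2 adult populations were taken at P60 from males that carried Lgr5EGFP-Cre-ERT, and CD31+ and CD45+ cells were gated out of all 4. Adult stem cells were sorted for high EGFP and enterocytes for EpCAM. The series design calls the libraries of a population biological duplicates. How many animals each one pooled is not given in the sources used here. An expression check of the sorted cells was not possible, because the lists hold 1 histone mark.

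H3K27me3 is the trimethylation of lysine 27 of histone H3. Polycomb repressive complex 2 places it on developmental genes that are kept silent, often in broad domains over CpG-rich promoters. The ParaHox cluster is the evolutionary sister of the Hox clusters. Gsx1 acts in the developing brain and spinal cord, Pdx1 in the pancreas and duodenum, and Cdx2 specifies and maintains intestinal epithelium. Cdx1, a close relative of Cdx2 outside the cluster, is expressed in the intestinal epithelium.

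The promoters of the 3 clustered genes are shown because the mark is known to favour sequence rich in CG dinucleotides. All 8 lists had islands within 10 kb of the positions used for Gsx1 and Pdx1, and none within 10 kb of that for Cdx2. Each sequence runs from 250 bases before to 50 bases after the RefSeq gene start, 5′ to 3′ on the gene's strand, with every CG in capitals. They are taken from the GRCm38.p6 assembly, not mm9, so their coordinates cannot be set directly against those of the islands. The Gsx1 promoter lies at chr5:147188446-147188745 on the plus strand, the Pdx1 promoter at chr5:147269847-147270146 on the plus strand and the Cdx2 promoter at chr5:147307200-147307499 on the minus strand.
Gsx1: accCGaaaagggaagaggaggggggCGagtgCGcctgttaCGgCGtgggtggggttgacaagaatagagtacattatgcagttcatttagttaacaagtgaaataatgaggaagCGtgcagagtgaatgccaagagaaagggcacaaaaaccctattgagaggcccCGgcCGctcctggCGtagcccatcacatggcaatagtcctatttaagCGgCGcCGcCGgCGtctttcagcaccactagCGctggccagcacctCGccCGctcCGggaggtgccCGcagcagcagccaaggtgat
Pdx1: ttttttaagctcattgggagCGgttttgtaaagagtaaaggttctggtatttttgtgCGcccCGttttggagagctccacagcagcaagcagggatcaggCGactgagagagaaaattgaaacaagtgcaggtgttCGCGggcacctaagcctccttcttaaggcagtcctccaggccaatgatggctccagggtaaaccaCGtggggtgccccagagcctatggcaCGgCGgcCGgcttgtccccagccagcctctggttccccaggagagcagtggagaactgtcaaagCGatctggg
Cdx2: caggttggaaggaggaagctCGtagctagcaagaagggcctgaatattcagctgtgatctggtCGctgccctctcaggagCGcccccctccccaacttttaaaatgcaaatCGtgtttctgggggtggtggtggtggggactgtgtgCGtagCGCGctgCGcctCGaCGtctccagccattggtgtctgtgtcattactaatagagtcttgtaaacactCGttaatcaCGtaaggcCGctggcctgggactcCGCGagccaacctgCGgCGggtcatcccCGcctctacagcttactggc
CG, the only motif searched, reads the same on both strands. It occurred 19 times in the Gsx1 promoter, 18 times in the Cdx2 promoter and 11 times in the Pdx1 promoter, against a median of 7 over 32851 RefSeq promoters of this length. At least 1 CG was present in 94.6% of those promoters. As many or more than in Gsx1 were present in 28.1% of them, as many or more than in Cdx2 in 29.7%, and as many or more than in Pdx1 in 41.4%. Gsx1 and Cdx2, at opposite ends of the cluster, had nearly the same CG count over these 300 bases. Whether CG content is related to the mark at these genes was not tested.

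The lists differed in extent before any gene was considered. They held 6171 to 17407 islands, covered 60.8 to 241 Mb and contained 1171968 to 6627853 ChIP reads inside islands. ISC replicate 1 covered 241 Mb and the other 7 lists at most 109 Mb. Reads are listed only inside the islands of their own library, so an uncovered position was not called there, which leaves lower levels of the mark undetected. The share of a 20 kb window (10 kb to either side of the gene's position) inside islands was therefore the measure compared across lists. Positions were those given with the regions, 148.00 Mb for Gsx1, 148.08 Mb for Pdx1, 148.11 Mb for Cdx2 and, for Cdx1, the middle of its region. They are rounded and can stand several kb from a gene start, and no mm9 gene model was used here.

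Across the ParaHox cluster, all 8 lists had H3K27me3 islands within 10 kb of the Gsx1 and Pdx1 positions. No list had one within 10 kb of the Cdx2 position. The Gsx1 position itself lay inside an island in all 8 lists and the Pdx1 position in 7, all but AE replicate 1. Islands covered 90.9 ± 8.56% of the Gsx1 window and 64.1 ± 17.5% of the Pdx1 window (SD, n = 8 lists), and 0% of the Cdx2 window in each of the 8 lists. The Cdx1 window, at the middle of its region, had a share close to that of Cdx2. It was 2.12 ± 5.08% (SD, n = 8 lists), with 6 lists at 0%. The order of the windows from marked to unmarked was Gsx1, Pdx1, Cdx1, Cdx2. The ranges of Gsx1 (78 to 100%) and Pdx1 (41 to 100%) overlapped, as did those of Cdx1 (0 to 2.9 kb of 20 kb) and Cdx2.

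**Figure D1:**
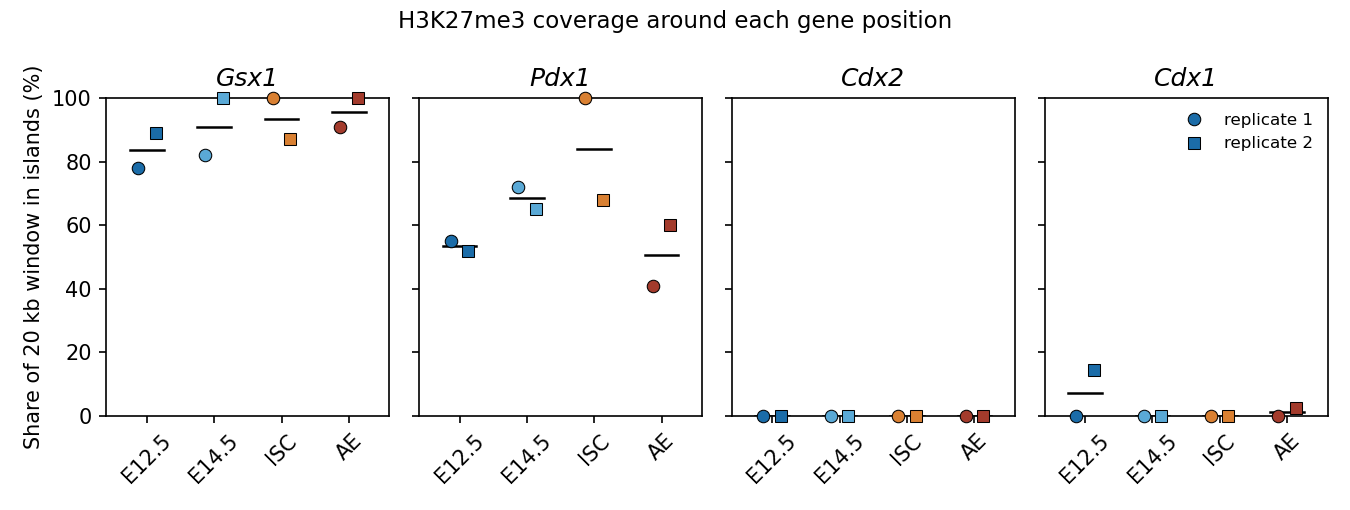
Share of the 20 kb window around each gene position that lay inside H3K27me3 islands, in percent, for the 4 populations. Points are single libraries and bars the mean of 2 replicates; all Gsx1 points lie at 78% or above, and all Cdx2 points at 0%.

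Gsx1 had the widest coverage of the 4 genes, on the mean over lists. Its window was covered to 78% and 89% for the E12.5 pair (replicates 1 and 2, in this order throughout), 82% and 100% for the E14.5 pair, 100% and 87% for the ISC pair, and 91% and 100% for the AE pair. Every list reached at least 50% of the window. Among 131933 tiles of 20 kb over the whole genome, this was the case for 1.56% and 1.39% in the E12.5 lists, 1.96% and 3.28% in the E14.5 lists, 8.68% and 1.46% in the ISC lists, and 2.26% and 2.41% in the AE lists. Only 0.329% of tiles reached it in all 8 lists at once. The position itself lay inside an island in every list.

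The Gsx1 islands were long for their lists, at 18.6 and 17.8 kb for the E12.5 pair, 19.2 and 30.2 kb for the E14.5 pair, 29.8 and 20.4 kb for the ISC pair, and 20.4 and 33 kb for the AE pair. In length they stood between percentile 91.4 and percentile 98.4 of their lists. Their right borders fell close together, between 148008600 and 148013200, a span of 4.6 kb. In 7 lists the border lay at 148011800 or later, and in E12.5 replicate 2 a separate island from 148010001 to 148012800 filled most of the difference. That separate island is counted below with the islands between Gsx1 and Pdx1. Left borders were spread over 15.6 kb, from 147978801 in AE replicate 2 to 147994401 in E12.5 replicate 1. All 8 lists shared a stretch of 14.2 kb, from 147994401 to 148008600.

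Pdx1 carried a shorter island, and the covered share of its window varied more than that of Gsx1. Neither share can exceed 100%, and the Gsx1 shares lay nearer to that limit on the mean. The Pdx1 window was covered to 55% and 52% for the E12.5 pair, 72% and 65% for the E14.5 pair, 100% and 68% for the ISC pair, and 41% and 60% for the AE pair. The highest value came from ISC replicate 1 and the lowest from AE replicate 1, so both extremes were adult. Coverage of at least 50% was reached in 7 of 8 lists, as in 0.535% of tiles with 7 or 8 such lists. AE replicate 1 was the exception, with an island that began at 148081801, 1.8 kb beyond the Pdx1 position, which itself was unmarked in this list. Because the position is rounded, an offset of this size does not show that the Pdx1 start was unmarked. Every list nevertheless had an island in the window, as did 1.48% of all tiles.

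Pdx1 islands were 15.6 and 12.6 kb long for the E12.5 pair, 19.0 and 16.4 kb for the E14.5 pair, 27.6 and 13.6 kb for the ISC pair, and 12.2 and 12.0 kb for the AE pair. All were shorter than the Gsx1 island of the same list. The left border came first in ISC replicate 1 (148068401) and last in AE replicate 1 (148081801), a span of 13.4 kb. Right borders, which face Cdx2, came first in AE replicate 2 (148089600) and last in ISC replicate 1 (148096000), a span of 6.4 kb. The stretch from 148081801 to 148089600 (7.8 kb) was covered in all 8 lists.

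**Figure D2:**
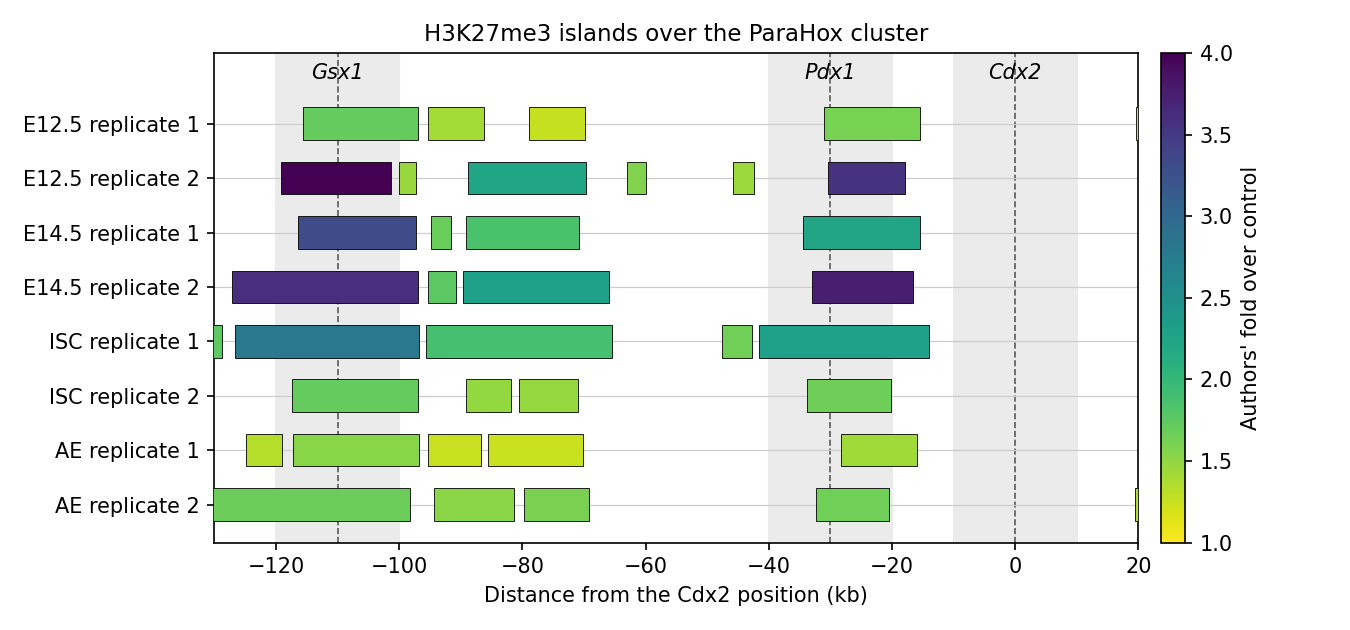
Islands over the ParaHox cluster in each of the 8 lists, by distance in kb from the Cdx2 position, coloured by the authors' fold over control. Dashed lines mark gene positions and grey bands the 20 kb windows; Gsx1 and Pdx1 carry islands in every list, and the band of Cdx2 is empty.

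Between both genes the mark was broken up. Islands lying between the Gsx1 and the Pdx1 island filled 27.9% and 40% of that stretch for the E12.5 pair, 34.4% and 44.1% for the E14.5 pair, 63.4% and 26.9% for the ISC pair, and 35.0% and 35.9% for the AE pair. Most of this length lay on the Gsx1 side of the stretch. A gap of 1.2 kb from 148013201 to 148014400, just right of the Gsx1 islands, was free in all 8 lists. Beyond it, 148021201 to 148023200 (2 kb) and 148031001 to 148039000 (8 kb) were covered in all 8. Nearer to Pdx1, 12.4 kb from 148050001 to 148062400 were free of islands in all 8 lists.

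Bin by bin on the 200 bp grid, 33.8 kb of the ParaHox region (22.5%) were covered in all 8 lists, 50.2 kb (33.5%) in none and 66.0 kb (44%) in 1 to 7. The longest uncovered run lay around Cdx2. It reached from 148096001 to 148129400, or 33.4 kb, and held the whole Cdx2 window.

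Cdx2 stood in an unmarked interval that opened at the right border of the Pdx1 island in each list. That border lay 15.4 and 17.8 kb from the Cdx2 position for the E12.5 pair, 15.4 and 16.6 kb for the E14.5 pair, 14.0 and 20.2 kb for the ISC pair, and 16.0 and 20.4 kb for the AE pair. The populations overlapped in it, and its 8 values had an SD of 2.32 kb. On the far side the lists fell into 2 sets of 4. The next island began 19.6 kb from the Cdx2 position in E12.5 replicate 1, 21.8 kb in ISC replicate 1, 22.0 kb in AE replicate 1 and 19.4 kb in AE replicate 2. In the 4 others it began 98.4 kb (E12.5 replicate 2), 86.0 kb (E14.5 replicate 1), 86.4 kb (E14.5 replicate 2) and 97.4 kb (ISC replicate 2) away. E12.5 and ISC each had 1 replicate on either side of this division. All these distances are from the rounded position. The Pdx1 and Cdx2 promoters lie farther apart in GRCm38.p6 (chr5:147269847-147270146 and chr5:147307200-147307499) than the positions used (148.08 and 148.11 Mb). If mm9 has the same spacing, the distances are too short on the Pdx1 side and too long on the far side. The far border may then be the nearer one in the lists with a near island. Which border lies nearer to the Cdx2 promoter was not determined.

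The 4 near islands on that side were weakly enriched, with a fold of 1.196 in E12.5 replicate 1 and between 1.38 and 1.42 in the others. In RefSeq's GRCm38.p6 gene order the protein-coding genes next to Cdx2 on the side away from Pdx1 are Urad and then Flt3. The whole unmarked interval was 35.0 and 116.2 kb long for the E12.5 pair, 101.4 and 103 kb for the E14.5 pair, 35.8 and 117.6 kb for the ISC pair, and 38.0 and 39.8 kb for the AE pair. Gaps of this size are common in the lists, and 27.2% (E12.5 replicate 1) to 68.7% (E12.5 replicate 2) of a list's gaps between islands were shorter. Likewise, 71.8% of all 20 kb tiles had no island in any of the 8 lists. An empty window was thus the usual state of the genome, and what the lists show at Cdx2 is its place beside islands called in all 8.

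The centre of the Cdx1 region was unmarked in all 8 lists, with islands elsewhere in the region in 5. This centre is not a gene position, so whether the Cdx1 promoter lay inside an island was not determined in any list. A run of 19.6 kb, from 61175001 to 61194600, was free in every list. E12.5 replicate 1, E14.5 replicate 1 and AE replicate 1 had no island anywhere in the 45 kb region. The Cdx1 window was touched in 2 lists, E12.5 replicate 2 (2.9 of 20 kb) and AE replicate 2 (0.5 of 20 kb). By comparison, 17.3% of all tiles were touched in 1 or 2 lists. Without E12.5 replicate 2, mean coverage of the Cdx1 window was 0.357%. The unmarked interval at the centre was 238.8 and 19.6 kb long for the E12.5 pair, 561.4 and 507.6 kb for the E14.5 pair, 50.2 and 431.4 kb for the ISC pair, and 155 and 60.4 kb for the AE pair.

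The E12.5 replicate 2 island over the window ran from 61194601 to 61198600 (4 kb), 7.1 kb from the centre. It held 152 ChIP and 80 control reads, a fold of 3.03 (95% counting interval 2.30 to 4.02) that 93.9% of that list's islands did not exceed. E12.5 replicate 1 had nothing there, its nearest islands ending 113.7 kb to the left and beginning 125.1 kb to the right of the centre. The AE replicate 2 island, from 61197001 to 61225800 (28.8 kb), lay almost wholly outside the window, with a fold of 1.21, among the lowest 2.6% of its list.

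**Figure D3:**
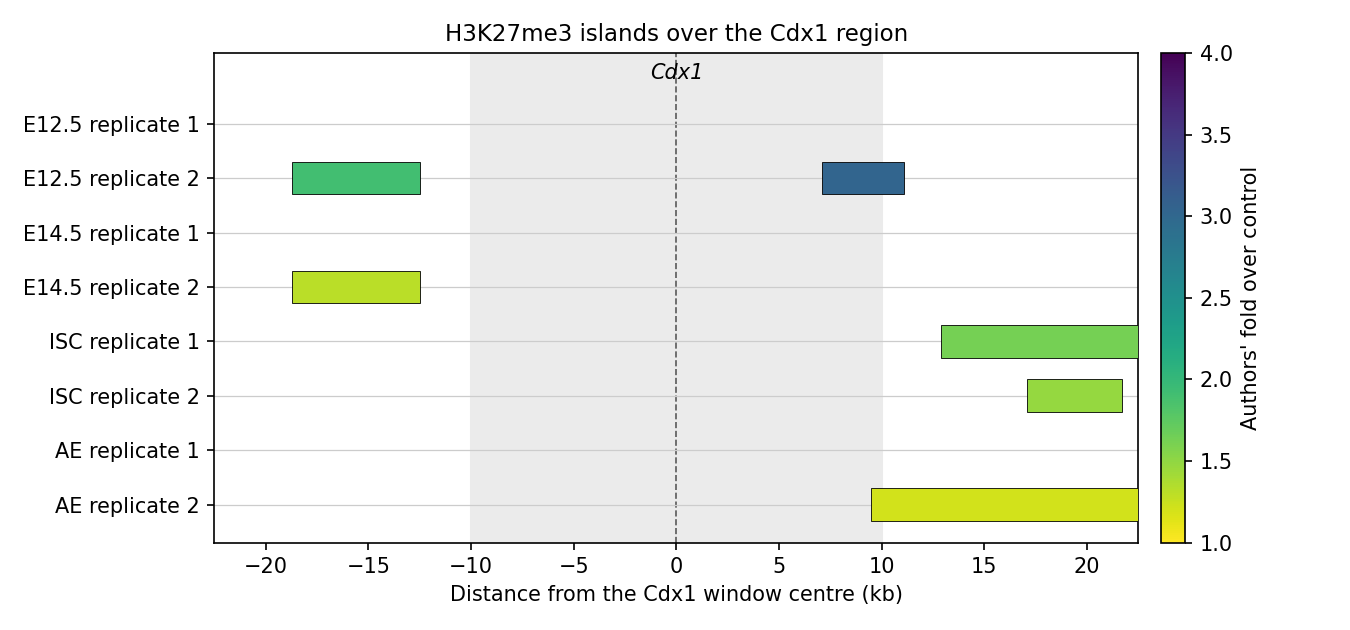
Islands over the Cdx1 region in each of the 8 lists, by distance in kb from the centre of the Cdx1 window, coloured by the authors' fold over control. The grey band is the 20 kb window; embryonic islands lie left of it, apart from 1 at its right edge in E12.5 replicate 2, and adult islands at or beyond its right edge.

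On the left flank, islands with identical borders, 61168801 to 61175000 (6.2 kb), were called in E12.5 replicate 2 (fold 1.91) and E14.5 replicate 2 (fold 1.32). Replicate 1 of either age lacked them. On the right flank, ISC replicate 1 had an island of 16 kb from 61200401 (fold 1.62), ISC replicate 2 one of 4.6 kb from 61204601 (fold 1.48), and AE replicate 2 the island described above. The shared 4.6 kb made ISC the only population with any length of the Cdx1 region covered in both replicates. In GRCm38.p6 gene order Cdx1 lies between Slc6a7, a transporter gene, and Gm52351, a predicted gene, followed by Pdgfrb, a growth factor receptor gene. Which of these genes, Cdx1 included, the flanking islands overlap could not be given without an mm9 gene model.

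The size of the enrichment was read within each list, since each population had its own control and the replicates of a population shared one. Over the Gsx1 island, ChIP over control reads were 401 over 404 and 907 over 362 for the E12.5 pair, 1413 over 457 and 1412 over 688 for the E14.5 pair, 1437 over 655 and 553 over 448 for the ISC pair, and 1008 over 452 and 953 over 657 for the AE pair. The raw ratios were 0.993 and 2.51 for the E12.5 pair, 3.09 and 2.05 for the E14.5 pair, 2.19 and 1.23 for the ISC pair, and 2.23 and 1.45 for the AE pair. They also carry the relative sizes of the ChIP and control libraries. After the authors' scaling, the folds were 1.71 and 3.99 for the E12.5 pair, 3.32 and 3.59 for the E14.5 pair, 2.80 and 1.71 for the ISC pair, and 1.53 and 1.67 for the AE pair.

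At Gsx1 the replicates of at least 2 populations differed beyond counting error. E12.5 replicate 2 had 2.34 times the Gsx1 fold of replicate 1 (95% counting interval 1.95 to 2.82), and ISC replicate 2 had 0.612 times that of replicate 1 (0.524 to 0.714). For E14.5 and AE the interval held 1, with ratios of 1.08 (0.941 to 1.24) and 1.09 (0.943 to 1.27). Counting intervals cover counting error only, of both ChIP and control reads. Those of replicate ratios take the control reads of both lists as independent, although replicates shared a control and their islands overlapped. They are therefore too wide, and an interval that held 1 does not show that the replicates were alike. Replicate ratios also compare islands with unlike borders, such as 19.2 and 30.2 kb for the E14.5 pair. The called extent of an island therefore enters these ratios.

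Pdx1 folds were within counting error of the Gsx1 folds in 6 of 8 lists. Its ChIP over control reads were 341 over 362 and 676 over 302 for the E12.5 pair, 910 over 437 and 831 over 388 for the E14.5 pair, 1068 over 590 and 393 over 327 for the ISC pair, and 512 over 245 and 364 over 254 for the AE pair. The raw ratios were 0.942 and 2.24 for the E12.5 pair, 2.08 and 2.14 for the E14.5 pair, 1.81 and 1.202 for the ISC pair, and 2.09 and 1.43 for the AE pair. The folds were 1.62 and 3.57 for the E12.5 pair, 2.24 and 3.75 for the E14.5 pair, 2.31 and 1.67 for the ISC pair, and 1.43 and 1.65 for the AE pair. Replicate 2 had 2.21 times the Pdx1 fold of replicate 1 at E12.5 (95% counting interval 1.804 to 2.70), 1.68 times at E14.5 (1.42 to 1.98) and 0.722 times in ISC (0.604 to 0.862). In AE the interval held 1 (ratio 1.15, 0.925 to 1.44). The E14.5 replicates thus differed beyond counting error at Pdx1. At Gsx1 their interval held 1 but was too wide, because of the shared control, to decide this. The Gsx1 fold was the higher one in 7 of 8 lists, all but E14.5 replicate 2. The counting interval of the ratio of Gsx1 to Pdx1 stood above 1 only in E14.5 replicate 1 (ratio 1.48, 1.27 to 1.73) and ISC replicate 1 (1.21, 1.06 to 1.39). In the 6 others it held 1, so the islands of both genes were not distinguishable at this depth.

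Enrichment was lower between both genes than over either. The islands between them as a whole had folds of 1.33 and 2.00 for the E12.5 pair, 1.84 and 2.23 for the E14.5 pair, 1.86 and 1.48 for the ISC pair, and 1.24 and 1.56 for the AE pair. Replicate 2 differed from replicate 1 beyond counting error in all 4 populations here, with ratios of 1.499 (1.26 to 1.79) at E12.5, 1.22 (1.05 to 1.41) at E14.5, 0.798 (0.677 to 0.941) in ISC and 1.26 (1.07 to 1.48) in AE. The pooled islands were not the same stretches, with 18.4 and 28.4 kb for the E12.5 pair and 35 and 17 kb for the ISC pair. These ratios therefore mix called extent with enrichment. Gsx1 exceeded the islands between both genes in all 8 lists, by ratios of 1.07 to 2.00, with the counting interval above 1 in 6 lists. Pdx1 exceeded them in all 8 as well, by 1.06 to 1.79, with the interval above 1 in 4. In ISC replicate 2 and AE replicate 2 the interval held 1 for both genes. Control reads per kb in the Gsx1 and Pdx1 islands ran from 19.9 to 24.04, and the medians over all islands of a list from 16.3 to 21.5.

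**Figure D4:**
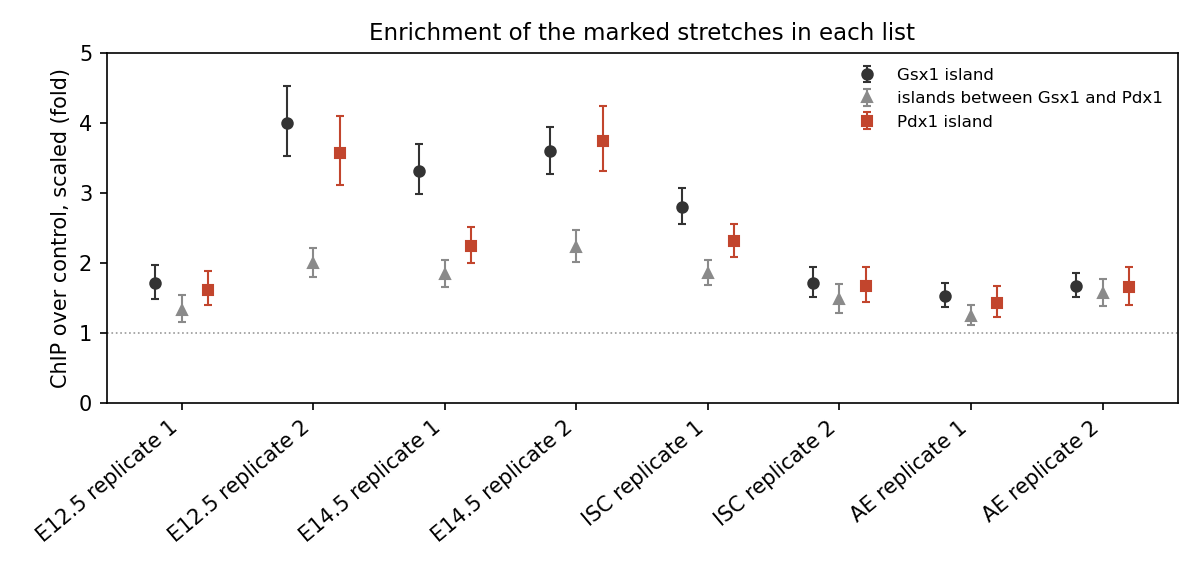
Fold of ChIP over control, scaled as by the authors, for the Gsx1 island, the islands between both genes together and the Pdx1 island in each list. Bars are 95% counting intervals; Gsx1 and Pdx1 lie above the islands between them in all 8 lists, most widely in E12.5 replicate 2.

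Within their lists, the Gsx1 islands had folds at percentile 89.7 and 98.5 for the E12.5 pair, 97.6 and 95.3 for the E14.5 pair, 97.8 and 82.9 for the ISC pair, and 61.8 and 69.5 for the AE pair. The Pdx1 islands stood at percentile 84.0 and 97.1 for the E12.5 pair, 84.9 and 96.1 for the E14.5 pair, 94.4 and 79.2 for the ISC pair, and 48.5 and 67.4 for the AE pair. Both AE values were the lowest of the 8 lists for either gene. The lists have different lengths, so a lower rank does not show a lower level of the mark.

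Adult against embryonic libraries were compared for a difference in the state of these genes. Age cannot be told apart here from the Lgr5EGFP-Cre-ERT males used for adults, the EGFP sort of ISC or the control of each population. Adult lists covered 94.5 ± 6.56% of the Gsx1 window and embryonic lists 87.25 ± 9.64% (SD, n = 4 each), an embryonic minus adult difference of -7.25 percentage points (exact two-sided permutation p = 0.314, adjusted p = 1). For Pdx1, adult lists covered 67.25 ± 24.6% and embryonic lists 61.0 ± 9.20%, an embryonic minus adult difference of -6.25 points (exact permutation p = 0.686, adjusted p = 1, n = 4 each). For Cdx1 the values were 0.625 ± 1.25% in adult lists and 3.62 ± 7.25% in embryonic lists, a difference of 3 points in the same direction of subtraction (exact permutation p = 1, adjusted p = 1, n = 4 each). Cdx2 was at 0% throughout. For all 4 genes the adult and embryonic lists overlapped; of the tiles touched by an island, 2.97% had every adult list above every embryonic one and 1.03% the reverse. The smallest p that 70 splits allow is 0.0286, and p-values were adjusted by Benjamini-Hochberg over 37203 windows and tiles. Of these, 0 (0%) reached an adjusted p under 0.05 and 1488 an unadjusted p under 0.05, and the smallest adjusted p was 0.714. The splits move single libraries, so the p-values do not extend to populations.

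The size of the Gsx1 difference depended on single libraries. It was -4.17 points without E12.5 replicate 1 and -11.5 points without E14.5 replicate 2 (exact permutation p = 0.571 and 0.114, n = 4 and 3 each). The direction of the Pdx1 difference rested on ISC replicate 1. Without this library the embryonic minus adult difference was 4.67 points (exact permutation p = 0.657, n = 3 and 4). The Cdx1 difference rested on E12.5 replicate 2, without which it was -0.625 points (exact permutation p = 1, n = 4 and 3).

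Step by step, few kb of the ParaHox region passed a rule that asks for the same change in both replicates. How much of the genome passes this rule was not computed, so the small lengths are not shown to be particular to this region. In E14.5 against E12.5, 2 kb were covered in both later and neither earlier library, 0 kb the reverse, and 40.4 kb in all 4. In ISC against E14.5, 0 kb were gained, 0 kb lost and 49 kb shared. In AE against ISC, 0 kb were gained, 1.4 kb lost and 41.8 kb shared. Over the Cdx1 region the only such change was the 4.6 kb gained in ISC against E14.5. With 2 libraries against 2 the smallest p is 1 in 3, so none is given for these steps. Replicates shared 0.588 of their joint covered length at E12.5, 0.739 at E14.5, 0.545 in ISC and 0.707 in AE. A step counts only length on which the replicates of each population agree, so their disagreement by itself keeps steps short. In ISC the joint length was that of replicate 1 alone (93.6 kb), the list with the widest coverage. This left little room for a loss from E14.5 to ISC.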

How the data were processed

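The submitters' processing notes name SICER 1.1 (the island caller), Bowtie 1.1.2, SAMtools 1.2, bcl2fastq 1.8.4 and the mm9 build; their settings are not given in the sources used here. The authors deposited 1 island list per ChIP library, called against an input. The deposited lists have no header, and their columns were identified from the values: ChIP and control read counts as deposited, the authors' p-value and FDR, and the authors' fold, a ratio scaled by library size. Within each list, ChIP over control over fold was 1 constant.

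The members, gene positions and tests were chosen with earlier results of these data known. Islands were painted on their 200 bp grid with Python 3.11.15, numpy 2.4.6 and pandas 2.3.3, and coordinates are 1-based. All 4 member genes and no others were described, apart from neighbours by name. Embryonic (E12.5, E14.5) and adult (ISC, AE) lists were compared by an exact permutation test that was checked on simulated data, with Benjamini-Hochberg adjustment over all 20 kb tiles touched by an island plus the 4 windows. Counting intervals are exact binomial intervals at 95% (scipy 1.17.1), and normal on the log scale for ratios of folds. Total library depth is unknown. Alternatives were windows of 5 and 20 kb to either side, islands with an FDR of 1e-10 or less or a fold of 1.5 or more, equal covered length, each library left out, and permutation within replicate numbers. Other genes of the pathway were not analysed here, because the gene table belongs to another assembly than the islands.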

Additional observations from a re-analysis of the deposited data

Results flagged for a closer look

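In groups of 4 lists (embryonic or adult), 6 of 26 sets of values held 1 list that stood apart from the other 3 by more than Dixon's 95% limit, where chance alone flags about 1 in 20. That rate does not apply to both Cdx1 sets, in which the other 3 lists were at 0 kb and any covered length would have stood apart. Islands covered 0.5 kb of the 20 kb Cdx1 window in AE replicate 2 and 0 kb in the other adult lists, and 2.9 kb in E12.5 replicate 2 and 0 kb in the other embryonic lists. The Gsx1 fold of ISC replicate 1 (2.80) stood above the other adult lists (1.53 to 1.71). So did the length of its Pdx1 island, 27.6 kb against 12.0 to 13.6 kb, in the list that covered the most of the genome. The unmarked interval at Cdx2 was 117.6 kb in ISC replicate 2 and 35.8 to 39.8 kb in the other adult lists. The Gsx1 island of E14.5 replicate 2 was 30.2 kb long, against 17.8 to 19.2 kb in the other embryonic lists.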

How the results depend on the processing

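The adult against embryonic tests say nothing about stability, since the smallest adjusted p of any window or tile was 0.714, so only sizes and directions are compared here. Permutation within replicate numbers (replicate block) left the embryonic minus adult differences at -7.25 points for Gsx1 (exact permutation p = 0.389), -6.25 for Pdx1 (p = 0.722), 0 for Cdx2 and 3 for Cdx1 (p = 1 for each); the shared numbers are not known to pair libraries. The Gsx1 difference ranged from -11.5 to -4.17 points with 1 library left out, and was 0 points with 5 kb and -14.4 with 20 kb to either side. The Pdx1 difference reversed to 4 points with folds of 1.5 or more, where AE replicate 1 lost its Pdx1 island, and ranged from -15 to 4.67 points with 1 library left out. The Cdx1 difference reversed to -2.56 points in the wider window and ranged from -0.625 to 4.21 with 1 library left out. With 5 kb to either side, all lists covered 100% of the Gsx1 window. With 20 kb to either side, mean coverage was 70.8% for Gsx1, 42.9% for Pdx1, 8.06% for Cdx2 and 11.5% for Cdx1, since windows then reach past the islands or into neighbouring ones. The mean unmarked interval at Cdx2, 73.4 kb as deposited, was 185.9 kb with an FDR of 1e-10 or less and 113.8 kb with a fold of 1.5 or more. At Cdx1 it was 253.05 kb as deposited, then 4360 and 782 kb, and 518 kb at equal covered length. The ParaHox length covered in all 8 lists fell to 22.0 and 14.2 kb under these stricter limits. The Cdx2 window stayed at 0% in all 8 lists under each choice of islands and under each window except the widest.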
